A study of Homo sapiens with 2 samples.

Results

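The cells described here are 1552 PC9 cells that carried an sgRNA against CTNNB1, the gene of beta-catenin, set against 700 cells with a non-targeting control sgRNA. They are 1552 of the 5556 cells that could be given to a single sgRNA, out of 10142 cells that passed the quality filter. A cell was given to an sgRNA when at least 5 unique molecular identifiers (UMIs) of that sgRNA were read in it and they made up at least 80% of its sgRNA UMIs. CTNNB1 sgRNA 1 to 6 had 200, 352, 262, 214, 492 and 32 cells. Control sgRNA 1 to 4 had 300, 164, 159 and 77 cells.

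PC9 is an established human lung adenocarcinoma line whose growth depends on a mutant EGF receptor. One lentiviral pool of sgRNAs was delivered, at an infection rate of 40% with polybrene at 8 ug/ml, and infected cells were selected with puromycin at 1 ug/ml from day 2 to day 6. The labels name both day 7 and day 8 for the harvest. They describe a knockout, but also cells expressing dCas9, the form of Cas9 that binds DNA and does not cut it, so they do not settle the kind of perturbation, which all groups share. They also describe vectors that carry several sgRNAs, as pairs or in tandem, whereas the files name a single sgRNA per captured feature. Whether a cell given to 1 sgRNA also expressed others, and so how separate the sgRNAs are as replicates, is not settled by the sources used here. The control and CTNNB1 sgRNAs, and the JUN sgRNAs (836 cells, 6 sgRNAs) and CTCF sgRNAs (1182 cells, 6 sgRNAs) used for comparison, came from the same culture and the same sequencing libraries. For each sgRNA the counts of its cells were added up, and the sgRNA was the unit of every test. P-values therefore measure the spread between sgRNAs of 1 pooled culture, which may be technical.

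The summed counts held 20594141 gene UMIs for the CTNNB1 sgRNAs, from 411333 (sgRNA 6) to 6430143 (sgRNA 5). The controls held 8956049, from 1038200 (sgRNA 4) to 3869915 (sgRNA 1). Levels are given in CPM, a gene's share of all gene UMIs of an sgRNA, scaled alike for every sgRNA, as mean ± SD over sgRNAs. Epithelial markers were abundant in the CTNNB1 cells, with EPCAM at 266 CPM and KRT18 at 4490.9 CPM in the pooled counts. Of 21 genes in the lung identity list, 5 had counts enough to be tested. NKX2-1 had 4 UMIs and SFTPC 0 in the CTNNB1 cells, and 2 and 0 in the smaller total of the controls. As means over sgRNAs, FOXA1 was at 24.8 against 26.0 CPM in the controls, ID1 at 32.9 against 43.3 CPM and ABCA3 at 7.46 against 8.47 CPM. LAMP3 was at 4.09 against 3.78 CPM and CEBPA at 2.90 against 2.29 CPM. Over 20 markers of blood, endothelial and stromal cells the summed level was 21.9 to 28.7 CPM in the CTNNB1 sgRNAs and 17.2 to 34.7 CPM in the controls. PTPRC, PECAM1 and LYZ had 4, 3 and 1 UMIs in the CTNNB1 cells, and 6 of the 20 markers were at 0 in both groups. These low markers do not stand for the whole list. CDH5 and CD68, the 2 with counts enough to be tested, both had a log2 fold change above 0 against controls (median 0.447), and 0 were called. With each sgRNA left out in turn, CDH5 lay between 0.415 and 1.2 and CD68 between 0.0508 and 0.364.

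Beta-catenin has separate roles at the membrane and in the nucleus. At adherens junctions it links cadherins to alpha-catenin and the actin cytoskeleton. In canonical Wnt signalling it is marked for degradation by a complex of APC, AXIN, GSK3 and casein kinase, and when that complex is held off it enters the nucleus and works with TCF/LEF factors on target genes such as AXIN2 and LGR5. Its close relative plakoglobin (JUP) sits in adherens junctions and desmosomes and can stand in for it at the junction.

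The CTNNB1 transcript was lower in the CTNNB1 cells with every sgRNA. CTNNB1 (ENSG00000168036) lies on the plus strand of chromosome 3 from 41199505 to 41240443 in GRCh38.p14. In control sgRNA 1 to 4 its level was 42.9, 54.5, 43.3 and 57.8 CPM, from 166, 111, 87 and 60 UMIs. In CTNNB1 sgRNA 1 to 6 it was 33.1, 22.3, 14.9, 19.8, 33.1 and 34.0 CPM, from 91, 103, 53, 56, 213 and 14 UMIs. The highest CTNNB1 sgRNA lay below the lowest control, so the groups did not overlap. The means were 26.2 ± 8.26 CPM (SD, n = 6 sgRNAs) and 49.6 ± 7.67 CPM (n = 4). The log2 fold change in edgeR's fit was -0.90 ± 0.14 (SE; 95% interval -1.18 to -0.63), a 1.87-fold lower fitted level, and CTNNB1 fell by edgeR's quasi-likelihood test (adjusted p = 9.97e-05). In bulk sums of this kind, fewer cells with the transcript and less transcript per cell cannot be told apart.

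**Figure D1:**
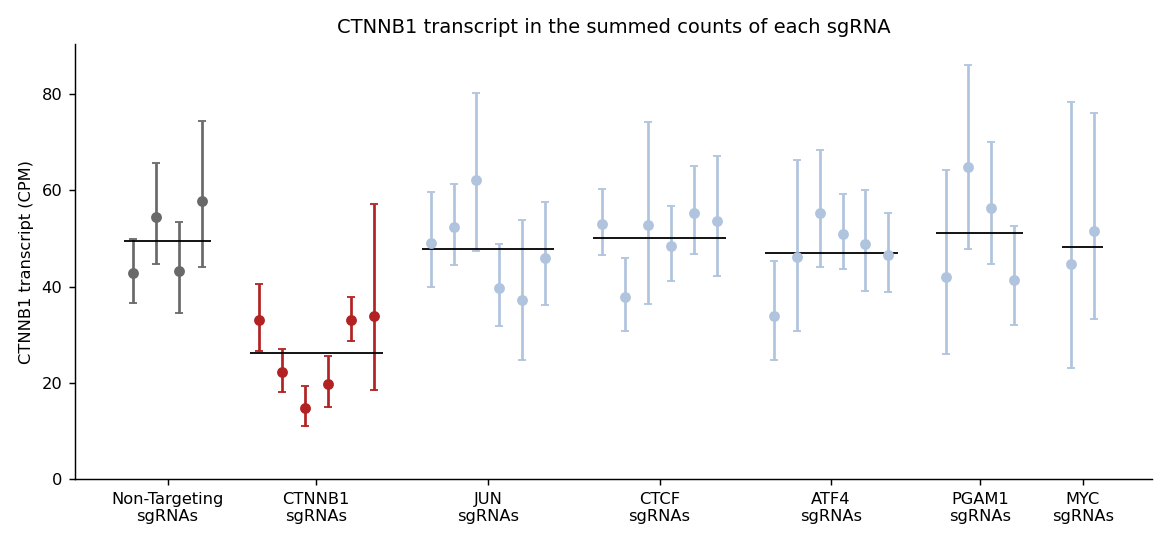
CTNNB1 transcript in the summed counts of each of the 34 tested sgRNAs, in CPM (vertical axis), grouped by target. Points are sgRNAs, error bars are exact 95% Poisson intervals of the UMI count (counting error only), and lines are group means. The 6 CTNNB1 sgRNAs sit between 14.9 and 34.0 CPM, below all 4 controls.

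Controls were not the only cells with more CTNNB1 transcript. Of the 28 tested sgRNAs that do not target CTNNB1, 27 had a higher level than any CTNNB1 sgRNA, and the other, ATF4 sgRNA 1, had 33.9 CPM. The JUN sgRNAs held 47.8 ± 9.05 CPM (n = 6) and the CTCF sgRNAs 50.2 ± 6.47 CPM (n = 6). The CTNNB1 transcript was lower than with JUN sgRNAs, by -0.89 ± 0.13 on the log2 scale (edgeR adjusted p = 1.08e-05). Against CTCF sgRNAs the log2 fold change was -0.97 ± 0.12 (edgeR adjusted p = 1.17e-07). The call against controls was lost under a stricter sgRNA rule of 10 UMIs and 90% (-0.76, edgeR adjusted p = 0.058) and in cells with at most 10% mitochondrial UMIs (-0.82, edgeR adjusted p = 0.26), both of which leave 5 CTNNB1 sgRNAs.

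The level of the CTNNB1 transcript varied over the 6 sgRNAs, but a difference among them did not pass. Against the controls, the log2 difference was -1.68 ± 0.23 for sgRNA 3 (edgeR adjusted p = 8.4e-06), -1.26 ± 0.23 for sgRNA 4 (edgeR adjusted p = 0.00997) and -1.10 ± 0.19 for sgRNA 2 (edgeR adjusted p = 0.0047). The values -0.55 ± 0.20 for sgRNA 1, -0.53 ± 0.16 for sgRNA 5 and -0.48 ± 0.43 for sgRNA 6, did not pass alone. The exact Poisson intervals of sgRNA 3 (11.2 to 19.5 CPM) and sgRNA 5 (28.8 to 37.9 CPM) were apart, whereas that of sgRNA 6, with 14 UMIs, ran from 18.6 to 57.1 CPM. In an edgeR test of any difference among the 6 sgRNAs, chosen after seeing the data, CTNNB1 had the lowest unadjusted p of 11570 genes (0.00031) but did not pass (adjusted p = 1.0), and 0 genes passed, with 257 (2.22%) at an unadjusted p under 0.05. No other gene was called with any sgRNA alone. The sgRNAs with the least CTNNB1 transcript (2, 3 and 4) had 351, 365 and 408 genes at an unadjusted p under 0.05, and sgRNA 1, 5 and 6 had 454, 272 and 542.

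The sgRNA sequences and their sites were not analysed here. The 250 bases before the RefSeq start of CTNNB1 (GRCh38.p14, chr3:41199255-41199504, plus strand) are shown because this is the promoter of the transcript that was lower. They are printed 5′ to 3′ and hold no match to the motif searched further on.
CTNNB1: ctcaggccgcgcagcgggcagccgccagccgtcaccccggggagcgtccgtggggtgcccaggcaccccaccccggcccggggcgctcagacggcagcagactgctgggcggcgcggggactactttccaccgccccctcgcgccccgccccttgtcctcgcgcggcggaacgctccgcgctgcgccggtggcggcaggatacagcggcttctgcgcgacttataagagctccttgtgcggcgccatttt

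Beyond CTNNB1 itself, no gene passed the test against controls. CTNNB1 was the only 1 of 11570 genes called (0.00864%), with 0 genes higher. At an unadjusted p under 0.05 there were 498 genes (4.3%), 236 higher (2.04%) and 262 lower (2.26%), and the median log2 fold change of all genes was 0.000251. DESeq2 also called 1 gene, CTNNB1 (-0.95), and had 274 genes at an unadjusted p under 0.05. The count depended on the fit. Fitting the CTNNB1 and control sgRNAs without the other targets called 6 genes (CTNNB1, IGFBP3, IFI27, IFI6, KCNQ1OT1 and CYP1B1, all lower). Dropping the filter on low counts called 5 (CTNNB1, IGFBP3, IFI27, IFI6 and ISG15, all lower), and the limit of 10% mitochondrial UMIs left 0, with 404 at an unadjusted p under 0.05.

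**Figure D2:**
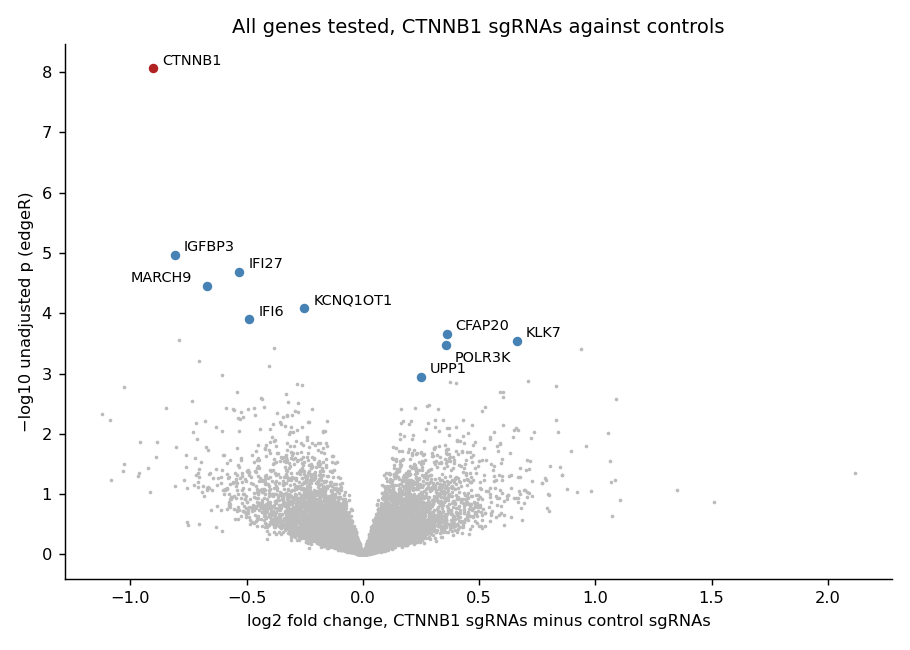
Log2 fold change of CTNNB1 sgRNAs minus control sgRNAs (horizontal axis) against −log10 of edgeR's unadjusted p (vertical axis) for the 11570 genes tested, 1 point per gene. CTNNB1 (red) is the only gene past an adjusted p of 0.05, and the other labelled genes (blue) did not pass.

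No Wnt/beta-catenin target gene was called. Of 34 genes, 19 had counts enough to be tested, 0 were called, 7 had a log2 fold change above 0 and 12 below 0, and the median was -0.01. The most direct readouts were barely present in either group. AXIN2, the feedback scaffold of the destruction complex, had 7 UMIs in the CTNNB1 cells (0.34 CPM, exact 95% Poisson interval 0.137 to 0.70) and 3 in the controls (0.335 CPM, 0.0691 to 0.979). LGR5, the R-spondin receptor, had 0 UMIs in both, which allows up to 0.146 CPM in the CTNNB1 cells and 0.335 CPM in the controls (3 counts of each total). NKD1 and SP5 had 9 UMIs each in the CTNNB1 cells against 8 and 6. A difference in these genes was not detectable at this depth.

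Targets with more reads overlapped between the groups. CCND1, the G1 cyclin, was at 349, 377, 357, 342, 347 and 314 CPM in CTNNB1 sgRNA 1 to 6 and at 357, 356, 361 and 387 CPM in the controls, a log2 difference of -0.05 with a 95% interval of -0.16 to 0.06. MYC was at 69.4 CPM on average with CTNNB1 sgRNAs and at 69.8 CPM with controls, with sgRNA 6 lowest at 41.3 CPM. The ubiquitin ligase ZNRF3 (11.7 against 12.8 CPM), the Wnt inhibitor DKK1 (12.0 against 15.2 CPM), SOX4 (55.8 against 61.5 CPM), SOX9 (31.2 against 37.9 CPM) and CD44 (209.9 against 208 CPM) overlapped between the groups. FOSL1, an AP-1 subunit, was the only member at an unadjusted p under 0.05, at 33.2 against 27.1 CPM (log2 difference 0.33 ± 0.12, edgeR adjusted p = 1.0).

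Components of the pathway held no called gene either. Of 49 ligands, receptors and signalling genes, 41 were tested, 0 were called, 22 lay above 0 and 19 below, and the median log2 fold change was 0.01. Among ligands and receptors, WNT7B was at 32.8 against 31.8 CPM, FZD6 at 16.0 against 17.3 CPM, LRP5 at 27.4 against 28.5 CPM and LRP6 at 17.7 against 19.0 CPM. Dishevelled genes, which carry the signal from the receptors, were at 15.4 against 19.3 CPM (DVL1), 15.0 against 13.7 CPM (DVL2) and 35.1 against 30.2 CPM (DVL3). In the destruction complex, APC was at 19.2 against 18.7 CPM, AXIN1 at 10.4 against 10.6 CPM, GSK3B at 51.1 against 50.4 CPM and CSNK1A1 at 257 against 242 CPM. GSK3A, at 26.9 against 23.5 CPM, was the only component at an unadjusted p under 0.05 (log2 fold change 0.25, edgeR adjusted p = 1.0). Downstream, the inhibitor CTNNBIP1 was at 30.7 CPM in both groups, the factor TCF7L2 at 13.4 against 13.8 CPM and the corepressor TLE1 at 24.6 against 21.7 CPM.

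The partners of beta-catenin at the junction were not called either. Of 20 adherens junction genes 17 were tested, 0 were called, 10 lay above 0 and 7 below, and the median log2 fold change was 0.06. Plakoglobin (JUP) was at 40.0, 43.5, 50.3, 42.8, 48.5 and 48.6 CPM in CTNNB1 sgRNA 1 to 6 and at 45.7, 50.1, 46.2 and 52.97 CPM in the controls. The log2 difference was -0.07 (95% interval -0.24 to 0.10, edgeR adjusted p = 1.0), with overlapping groups. E-cadherin (CDH1) was at 54.4 against 53.9 CPM, alpha-catenin (CTNNA1) at 24.1 against 22.4 CPM and p120-catenin (CTNND1) at 58.6 against 55.7 CPM. TJP1, the scaffold ZO-1, was at 58.2 to 64.4 CPM in the CTNNB1 sgRNAs and 52.0 to 54.7 CPM in the controls, without overlap (log2 difference 0.20, edgeR adjusted p = 1.0). NECTIN4 (7.49 against 4.03 CPM, 0.74) and vinculin (VCL; 63.0 against 71.0 CPM, -0.18) were the other members at an unadjusted p under 0.05. Of 9 tested desmosome genes, 18 epithelial genes and 8 tested mesenchymal genes, 0 were called, and their medians were -0.01, -0.03 and -0.07. In the epithelial list MUC1 alone was at an unadjusted p under 0.05, at 10.4 against 14.9 CPM.

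Ranked by unadjusted p after CTNNB1, the genes with lower values were led by IGFBP3 and the interferon-induced IFI27, neither of which passed. IGFBP3, a secreted protein that binds insulin-like growth factors, was at 31.8, 29.5, 36.8 and 38.5 CPM in control sgRNA 1 to 4. In CTNNB1 sgRNA 1 to 6 it was at 17.8, 19.1, 19.1, 16.6, 21.2 and 12.2 CPM, without overlap. The log2 difference was -0.81 ± 0.17 (edgeR adjusted p = 0.061), with 17.7 ± 3.09 against 34.1 ± 4.23 CPM. Without filter on low counts, fitted alone and under the stricter sgRNA rule it passed (edgeR adjusted p = 9.68e-07, 3.84e-05 and 0.038). It did not pass with any sgRNA left out in turn (edgeR adjusted p = 0.0615 to 0.29), with DESeq2 or at 10% mitochondrial UMIs. With JUN and CTCF sgRNAs IGFBP3 was at 25.2 ± 8.84 and 22.4 ± 3.91 CPM, and the CTNNB1 sgRNAs did not pass against either (-0.42 and -0.30; edgeR adjusted p = 0.70 and 0.52).

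IFI27, an interferon-induced membrane protein, was at 159, 163, 181 and 288 CPM in the controls and at 98.3, 139.9, 144, 123, 134 and 129 CPM in the CTNNB1 sgRNAs. The groups did not overlap, but control sgRNA 4, the smallest control with 77 cells, stood far above the other 3. The log2 fold change was -0.53 ± 0.12 (edgeR adjusted p = 0.079). It was -0.37 (edgeR adjusted p = 1.0) without control sgRNA 4 and passed without control sgRNA 1 (-0.64, edgeR adjusted p = 0.035). IFI6 was at 78.6, 72.7, 85.5 and 125 CPM in the controls and at 54.96, 58.0, 71.4, 58.0, 63.6 and 41.3 CPM in the CTNNB1 sgRNAs, again without overlap and with control sgRNA 4 highest. The log2 difference was -0.49 ± 0.12 (edgeR adjusted p = 0.24), and -0.37 without control sgRNA 4. KCNQ1OT1, an imprinted long non-coding RNA, was at 185 ± 15.0 against 215 ± 6.00 CPM (-0.25 ± 0.060, edgeR adjusted p = 0.19), and CTNNB1 sgRNA 6 at 209.1 CPM lay within the controls. KCNQ1OT1 overlaps KCNQ1, and the sources used here do not say whether the counting used strand.

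**Figure D3:**
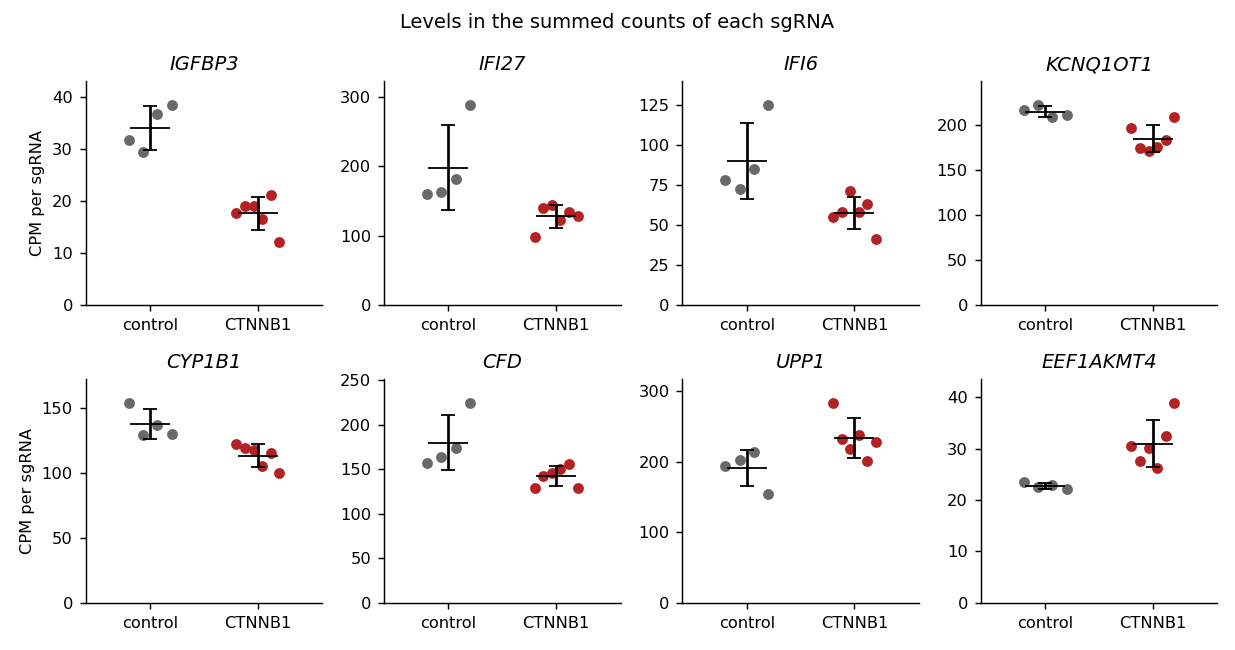
CPM (vertical axes, from 0) of 8 genes in the 4 control sgRNAs (grey) and the 6 CTNNB1 sgRNAs (red), with mean and SD in black. None of the 8 passed against controls. IGFBP3 separates the groups, IFI27 and IFI6 do so with control sgRNA 4 far above the rest, and UPP1 and KCNQ1OT1 overlap.

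The other 6 of the 10 named lower genes did not pass. The ubiquitin ligase MARCH9 was at 11.5 ± 1.82 against 18.4 ± 4.51 CPM (log2 fold change -0.67), the calcium-binding CAPS at 38.8 ± 4.94 against 51.8 ± 3.30 CPM (-0.38) and the ribosome quality control ligase LTN1 at 25.3 ± 1.14 against 34.3 ± 2.17 CPM (-0.40). CYP1B1, a cytochrome P450 enzyme, was at 113 ± 8.72 against 137 ± 11.4 CPM (-0.28), complement factor D (CFD) at 142 ± 11.2 against 179.5 ± 30.7 CPM (-0.26), and MUC1 at -0.54. All but KCNQ1OT1 and MUC1 of these 10 did not overlap between the groups, as did 83 genes with lower CTNNB1 values among all tested (0.717%). By the rule that named them, all 6 CTNNB1 sgRNAs lay below the control mean, as for 8.57% of all genes, so nothing is read from that.

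The 10 named genes with higher values did not pass either. UPP1, the uridine phosphorylase of pyrimidine salvage, was at 194, 203, 214 and 155 CPM in the controls and at 284, 232, 219, 239, 201 and 229 CPM in the CTNNB1 sgRNAs. CTNNB1 sgRNA 5 lay within the control range, and the log2 fold change was 0.25 ± 0.074 (edgeR adjusted p = 0.81). CFAP20, a ciliary protein, was at 39.8 to 42.4 CPM in the controls and at 43.8 to 57.7 CPM in the CTNNB1 sgRNAs (0.36), and POLR3K, a subunit of RNA polymerase III, at 39.5 to 40.8 against 45.7 to 56.3 CPM (0.36). The methyltransferase EEF1AKMT4 (0.38) and the glyoxalase HAGH (0.28) also did not overlap between groups, as did 95 genes with higher values among all tested (0.821%). All 6 CTNNB1 sgRNAs lay above the control mean for 7.66% of all genes, which the rule for naming used. The transcriptional repressor E2F6 (12.2 against 7.45 CPM, 0.59) and the cyclin Y relative CCNYL1 (11.7 against 7.87 CPM, 0.60) were low in both groups, as were the protease KLK7 (0.66) and the EGF receptor ligand BTC (0.60). The long non-coding MIR4435-2HG was at 31.4 against 24.1 CPM (0.40).

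Among the gene lists, interferon-induced genes had the lowest median log2 fold change of the 20 lists. The lists were chosen with earlier results of these data known, so this rank is a description and not a test. Of 40 genes 35 were tested, 0 were called, 32 lay below 0 against 49.9% of all genes, and 13 were lower at an unadjusted p under 0.05 against 2.26% of all genes. The median was -0.21, and by sgRNA it was -0.33, -0.23, -0.13, -0.14, -0.13 and -0.28 for sgRNA 1 to 6. These 6 medians share the same 4 controls. Without control sgRNA 4 the median was -0.15. IFITM3, a membrane protein that blocks viral entry, was at 330 against 392 CPM (-0.22), and IFI44L at 9.43 against 15.2 CPM (-0.59). ISG15, a ubiquitin-like modifier named after its values were seen, was at 134 to 184 CPM in the CTNNB1 sgRNAs and at 163 to 295 CPM in the controls, again highest in control sgRNA 4. Genes without such a shift included IRF7 at 63.2 against 64.5 CPM, STAT2 at 5.11 against 5.60 CPM and UBE2L6 at 57.5 against 58.9 CPM, all named after their values were seen. Comparisons with other targets, not set against the controls, still share the same CTNNB1 sgRNAs. They gave medians of -0.15 against JUN sgRNAs (30 of 35 below 0, 0 called) and -0.14 against CTCF sgRNAs (29 of 35 below 0, 0 called). For all genes those medians were -0.01 and -0.01, with 51.7% and 52.1% below 0.

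Promoters of 3 interferon-induced genes described above, IFI27, IFI6 and ISG15, are shown for a motif held by 19 of the 31 list genes with an entry. Each is the 250 bases before the RefSeq start in GRCh38.p14, 5′ to 3′ on the gene's strand, with matches to GAAANNGAAA, or to TTTCNNTTTC on the other strand, in capitals. This is the core of the interferon-stimulated response element. IFI27 (chr14:94110486-94110735, plus strand, the first of 2 listed starts) holds 2 matches, IFI6 (chr1:27672193-27672442, minus strand) 3, and ISG15 (chr1:1013247-1013496, plus strand) 2 that overlap.
IFI27: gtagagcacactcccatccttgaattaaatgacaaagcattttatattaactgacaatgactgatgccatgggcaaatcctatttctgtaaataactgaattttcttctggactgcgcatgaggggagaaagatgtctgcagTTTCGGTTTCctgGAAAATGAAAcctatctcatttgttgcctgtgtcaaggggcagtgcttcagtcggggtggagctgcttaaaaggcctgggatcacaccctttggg
IFI6: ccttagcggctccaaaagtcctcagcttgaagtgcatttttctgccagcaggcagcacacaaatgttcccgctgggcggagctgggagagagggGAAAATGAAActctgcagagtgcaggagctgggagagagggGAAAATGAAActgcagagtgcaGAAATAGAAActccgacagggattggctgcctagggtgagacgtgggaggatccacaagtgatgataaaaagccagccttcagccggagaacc
ISG15: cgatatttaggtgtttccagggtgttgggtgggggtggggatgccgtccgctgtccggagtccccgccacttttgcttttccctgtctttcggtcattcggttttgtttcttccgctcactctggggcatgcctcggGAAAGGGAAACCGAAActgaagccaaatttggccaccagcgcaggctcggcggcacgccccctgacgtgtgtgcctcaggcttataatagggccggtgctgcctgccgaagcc
Over all 35116 promoter windows of that length, with every entry of a gene counted, 1061 (3.02%) held a match. In the interferon-induced list 31 genes had an entry, of which the first was used. A match was held by 19 of these (61.3%), among them 17 of the 27 tested members with an entry (63.0%). A match is a run of letters and was not tested as a binding site in these cells.

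**Figure D4:**
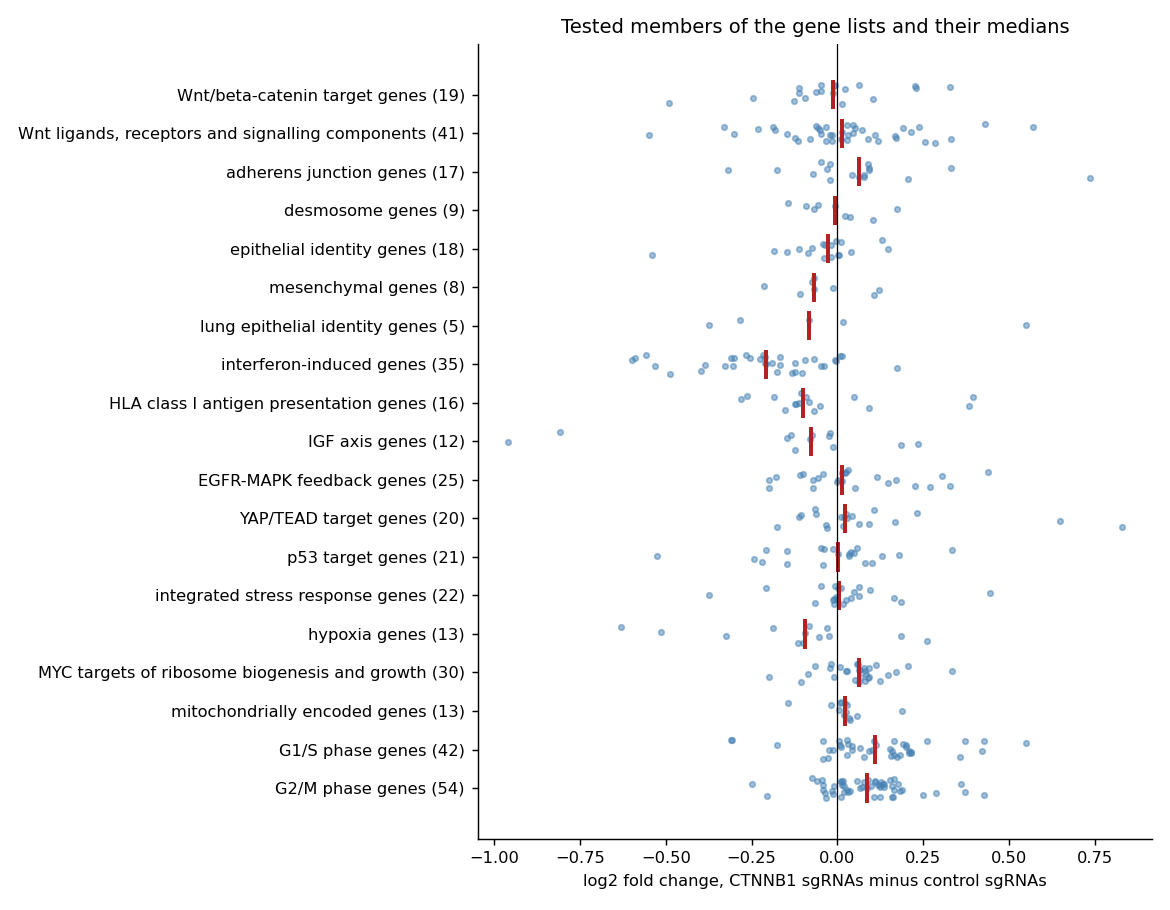
Log2 fold change of CTNNB1 sgRNAs minus control sgRNAs (horizontal axis) for the tested members of 19 gene lists, 1 blue point per gene, with the list median as a red bar and the number tested in parentheses. Medians of most lists lie near 0, that of interferon-induced genes at -0.21 and that of G1/S genes at 0.11.

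The other lists held 0 called genes each. G1/S genes, which act in DNA replication, had a median of 0.11 with 34 of 42 above 0 (50.1% of all genes) and 6 higher at an unadjusted p under 0.05, among them the histone chaperone NASP at 149.9 against 125 CPM (0.21). The G1/S median was 0.06 without control sgRNA 1, 0.02 under the looser sgRNA rule of 3 UMIs and 60%, and 0.17 at 10% mitochondrial UMIs. In G1-scored cells it was 0.26 over 31 tested members. Those cells were chosen by scores of this same list, so nothing is read from that value. G2/M genes had a median of 0.09 with 42 of 54 above 0, and CDC25C (0.43) and KIF2C (0.36) had its lowest unadjusted p. Against JUN sgRNAs the G2/M median had the other sign (-0.12, 41 of 54 below 0), and against CTCF sgRNAs it was 0.02. MYC targets of ribosome biogenesis had a median of 0.06, with 23 of 30 above 0. Hypoxia genes had a median of -0.09, with EGLN3 at 8.48 against 13.9 CPM (-0.51) and NDRG1 at 6.80 against 13.4 CPM (-0.63). HLA class I genes had a median of -0.10 with 12 of 16 below 0, and IGF axis genes of -0.08, with IGFBP5 at 2.72 against 8.53 CPM (-0.96), where control sgRNA 2 held 19.1 CPM and the other 3 controls 1.8 to 7.7 CPM. EGFR-MAPK feedback genes (0.01), YAP/TEAD targets (0.02), p53 targets (0.00), integrated stress response genes (0.01) and mitochondrially encoded genes (0.02) had medians near 0. In the EGFR-MAPK list AREG, a ligand of the receptor, was at 80.9 against 63.6 CPM (0.31) and FOS at 85.5 against 98.0 CPM (-0.20). ARHGEF17 in the YAP/TEAD list was at 7.71 against 4.34 CPM (0.83). Of the 5 tested lung identity genes, ID1 was at 32.9 against 43.3 CPM (-0.28).

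The comparisons with the JUN and CTCF sgRNAs do not set the CTNNB1 sgRNAs against the controls. The controls are still part of the shared fit, its scaling and its estimate of spread. All 3 comparisons share the CTNNB1 sgRNAs. Against JUN sgRNAs 12 genes were called (0.104%), 6 higher and 6 lower (0.0519% each). Besides CTNNB1, the lower ones were IGFBP5 (-1.75), WNT6 (-0.91), the protease inhibitor PI3 (-0.90), the acute-phase SAA1 (-0.89) and CYP1B1 (-0.61). IGFBP5, WNT6, PI3 and SAA1 lost the call with DESeq2 (adjusted p = 0.177, 0.249, 0.182 and 1.0) and with the stricter assignment of sgRNAs (edgeR adjusted p = 0.866, 0.494, 0.0564 and 0.0585), where IGFBP5 was at -0.80. CYP1B1 kept it in all 8 alternatives run for this comparison. Of the 6 higher ones, 5 are given here: MYH15 (0.67), the cytokine IL11 (0.64), the 14-3-3 protein SFN (0.36), UPP1 (0.34) and ANXA2 (0.23). All 5 lost the call under the stricter rule (edgeR adjusted p from 0.0564 for SFN to 0.543 for UPP1) and at 10% mitochondrial UMIs. Against the controls log2 fold changes were -0.02 (WNT6), 0.05 (PI3), -0.04 (SAA1), 0.00 (IL11), 0.08 (SFN) and 0.05 (ANXA2). PI3, for instance, was at 104 ± 30.6 CPM with JUN sgRNAs and at 40.3 to 73.2 CPM in the controls, with the CTNNB1 sgRNAs at 44.4 to 61.2 CPM or within the control range.

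Against CTCF sgRNAs 33 genes were called (0.285%), 7 higher (0.0605%) and 26 lower (0.225%). Some of them were set apart in few CTCF sgRNAs. SYCE3 was at 28.9 ± 50.8 CPM and PRSS2 at 17.7 ± 25.7 CPM with CTCF sgRNAs, so their SD exceeded their mean. PRSS1 and PRSS2 are near-identical copies whose reads the counting could split. The nuclear RNAs MALAT1 (-0.34) and NEAT1 (-0.44) and the hydroxysteroid enzyme AKR1C1 (-0.38) were lower in the CTNNB1 cells than with CTCF sgRNAs, and EEF1A2 (0.41), NMB (0.47) and the histone variant gene H2AFZ (0.21) were higher. None of these 6 was called at 10% mitochondrial UMIs (edgeR adjusted p from 0.0793 for NMB to 0.652 for H2AFZ). UPP1 passed in both comparisons with other targets. It was at 0.34 ± 0.068 against JUN sgRNAs (edgeR adjusted p = 0.0069) and 0.27 ± 0.065 against CTCF sgRNAs (edgeR adjusted p = 0.037). UPP1 stood at 188 ± 31.7 and 187 ± 19.4 CPM in those groups. It lost both calls with DESeq2 (adjusted p = 0.0775 and 0.0555), under the stricter rule (edgeR adjusted p = 0.543 and 0.172) and at 10% mitochondrial UMIs (edgeR adjusted p = 0.866 and 0.716), and the call against CTCF sgRNAs also under the looser rule and in G1-scored cells (edgeR adjusted p = 0.167 and 0.326). CTNNB1 and UPP1 were the 2 genes called in both comparisons. KCNQ1OT1 (-0.24, edgeR adjusted p = 0.014) and CFD (-0.36, edgeR adjusted p = 0.0019) passed against CTCF sgRNAs, and CYP1B1 (edgeR adjusted p = 2.3e-07) against JUN sgRNAs. KCNQ1OT1 lost this call under the stricter rule, the looser rule, at 10% mitochondrial UMIs and in G1-scored cells (edgeR adjusted p = 0.175, 0.286, 0.777 and 0.089), and CFD at 10% mitochondrial UMIs and in G1-scored cells (edgeR adjusted p = 0.391 and 0.145).

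At the level of single cells, the share with a CTNNB1 UMI was lower on average with CTNNB1 sgRNAs, but the difference did not pass at a matched depth of 5000 UMIs. To compare cells of different depth, each cell with at least that number was thinned to it, and shallower cells were left out. For CTNNB1 sgRNA 5 this kept 487 of 492 cells. Values at 5000 UMIs, at 8000 UMIs and without thinning therefore rest on different sets of cells. The share of cells with a CTNNB1 UMI was then 15.1, 10.95, 7.69, 7.66, 15.4 and 18.8% in CTNNB1 sgRNA 1 to 6 and 18.3, 26.7, 15.2 and 23.4% in the controls. The means were 12.6 ± 4.54% and 20.9 ± 5.14%, a difference that did not pass (exact two-sided permutation test over 6 and 4 sgRNAs, p = 0.057, adjusted p = 0.15 over 8 measures). Exact 95% binomial intervals ran from 4.44 to 12.1% for sgRNA 4 and from 7.21 to 36.4% for sgRNA 6, which has 32 cells. The shares of sgRNA 5 (15.4%) and sgRNA 6 (18.8%) lay above the lowest control (15.2%), and 4 of the 6 sgRNAs lay below all controls. Thinned to 8000 UMIs the difference was -13.0 percentage points (unadjusted exact permutation p = 0.019). Without thinning the shares were 17.2 to 32.9% with CTNNB1 sgRNAs and 39.0 to 54.5% with controls, without overlap (exact permutation p = 0.0095, the smallest that 210 splits can give). No cell type without CTNNB1 is known in this culture, so the share that free RNA could give was not measured.

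**Figure D5:**
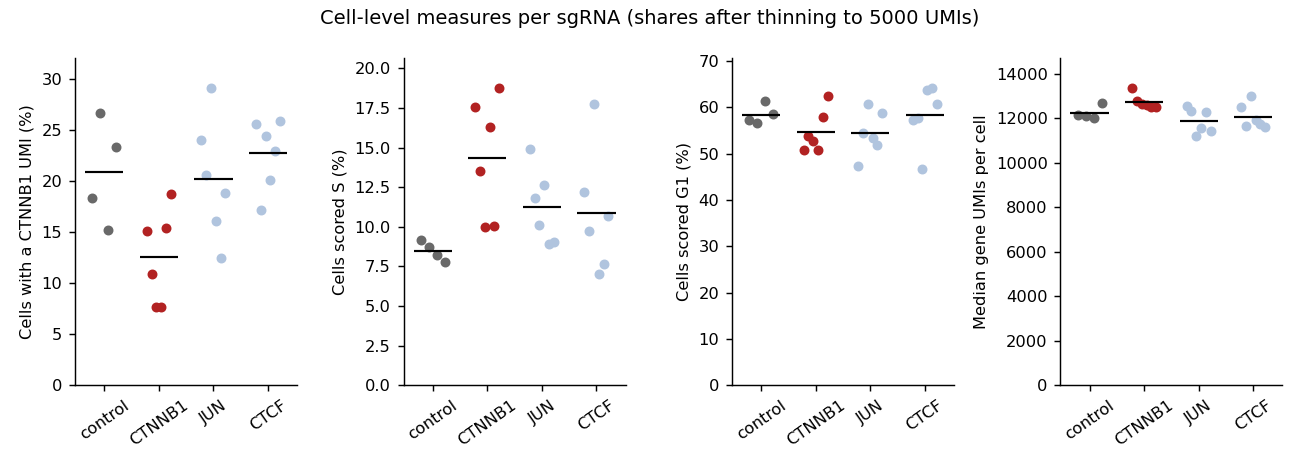
Share of cells with a CTNNB1 UMI, shares of cells scored S and G1, and median gene UMIs per cell (vertical axes, from 0), 1 point per sgRNA with the group mean as a line. The first 3 panels follow thinning to 5000 UMIs. CTNNB1 sgRNAs (red) lie at 7.66 to 18.8% for the CTNNB1 UMI and at 10.0 to 18.8% for S, where the controls (grey) lie at 7.79 to 9.15%.

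Cell cycle scores differed in 1 of 3 phases before correction. Phases were scored from the G1/S and G2/M lists above, so these shares and the medians of those lists are not separate observations. The share of cells scored S was 17.6, 13.5, 10.0, 16.3, 10.1 and 18.8% in CTNNB1 sgRNA 1 to 6 and 9.15, 8.70, 8.23 and 7.79% in the controls. All 6 lay above all 4, at 14.4 ± 3.78 against 8.47 ± 0.587% (exact permutation p = 0.0095, adjusted p = 0.076), a measure chosen after seeing the data. The difference was 5.90 percentage points. It was 0.74 when cells with at least 8000 UMIs were thinned to that number (exact permutation p = 0.57). Without thinning sgRNA 5, at 10.8%, lay within the controls, which spanned 10.3 to 11.9%. JUN sgRNAs spanned 8.93 to 14.9% and CTCF sgRNAs 7.00 to 17.8%, so both reached into the CTNNB1 range. The share scored G1 was 54.7 ± 4.63 against 58.4 ± 2.14% (exact permutation p = 0.19) and that scored G2/M 30.9 ± 6.29 against 33.1 ± 1.91% (exact permutation p = 0.65).

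None of the 8 measures of the cells passed after correction. Median gene UMIs per cell were 12717 ± 325 against 12221 ± 296 (exact permutation p = 0.048, adjusted p = 0.15), with CTNNB1 sgRNA 1 highest at 13344. Median genes per cell after thinning were 1922.3 ± 7.50 against 1916.2 ± 24.0 (exact permutation p = 0.64). Median mitochondrial UMIs were 10.8 ± 0.234 against 11.1 ± 0.318% (exact permutation p = 0.15), and median sgRNA UMIs per cell 15.3 ± 8.02 against 16.0 ± 7.26 (exact permutation p = 0.84). The part of depth in the S scores was not tested beyond the thinning above.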

How the data were processed

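The deposited matrix holds raw UMI counts per feature and cell barcode. Per the file headers it comes from Cell Ranger 6.1.2, and the submitters' processing notes name hg38. Settings of the alignment and any removal of doublets are not stated in these sources. It holds 10847 barcodes with 1 suffix and 0 repeated barcodes. Cells needed at least 1000 gene UMIs, 500 genes and at most 20% mitochondrial UMIs. No doublet caller was run. The 80% rule for sgRNA UMIs removes cells in which no sgRNA reaches that share, and cells with a smaller share of other sgRNAs remain. Counts summed per sgRNA (34 sgRNAs with at least 20 cells) entered 1 quasi-likelihood fit in edgeR 4.0.16 under R 4.3.3, with TMM scaling and edgeR's filter on low counts (11570 genes). Benjamini-Hochberg adjustment ran over all genes, with a threshold of 0.05. The fit was also run on simulated counts with the same spread for every gene and changes placed only in more abundant genes. That run cannot show how the fit does with genes of unlike spread or lower level. The SE is the log2 fold change divided by the square root of F. Cell measures were compared by exact two-sided permutation tests (scipy 1.17.1), and phases were scored from the G1/S and G2/M lists with scanpy 1.11.5. Alternatives included DESeq2 1.42.0, other filters and leaving out each sgRNA. Named genes are CTNNB1, genes past the threshold in any of the 3 comparisons, the 10 lower and 10 higher genes of lowest p with at least 10 CPM and all 6 sgRNAs on the same side, and, per list, the 4 of lowest p. Wnt and adherens junction genes of at least 10 CPM are also named. Members, lists and tests were chosen with earlier results of these data known. Of 36601 gene identifiers 36366 matched the reference table. Promoters are RefSeq's. Results for a few named genes are not reported here.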

Additional observations from a re-analysis of the deposited data

Results flagged for a closer look

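Of 58 groups of values checked, 6 held a sample far from the rest of its group by Dixon's criterion, where chance gives about 1 in 20. Control sgRNA 4 stood apart for IFI27 (288 CPM) and LTN1 (37.6 CPM). CTNNB1 sgRNA 6, with 32 cells, stood apart for E2F6 (17.0 CPM) and for the share of cells scored G2/M (18.8%). CTNNB1 sgRNA 1 stood apart for CCNYL1 (14.9 CPM) and for the median gene UMIs per cell (13344).

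A difference between CTNNB1 and another target passed edgeR's test for CTNNB1 and for 4 of the 20 genes named for their low p against controls. Those 20 genes were picked by values of the same CTNNB1 sgRNAs, so nothing is read from that count. Over all 11570 genes, 12 (0.104%) were called against JUN sgRNAs and 33 (0.285%) against CTCF sgRNAs, 43 against either. CTNNB1 differed by -0.894 against JUN sgRNAs and by -0.967 against CTCF sgRNAs on the log2 scale, and UPP1 by 0.338 and 0.267. CYP1B1 differed by -0.606 against JUN sgRNAs. KCNQ1OT1 and CFD differed by -0.243 and -0.362 against CTCF sgRNAs.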

How the results depend on the processing

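Counts of genes called against controls depended on the settings. Beside 1 gene, the count was 5 with no filter on gene counts, 2 when sgRNAs were assigned by the stricter rule (IGFBP3 and DHRS2, not CTNNB1), 0 with at most 10% mitochondrial UMIs and 6 when CTNNB1 and control sgRNAs were fitted alone. Leaving out each sgRNA gave 1 to 2. The CTNNB1 transcript lost its call under the stricter rule (-0.759, edgeR adjusted p = 0.058) and at 10% mitochondrial UMIs (-0.823, adjusted p = 0.26; against JUN sgRNAs -0.772, adjusted p = 0.073). It stayed called without each sgRNA in turn (-1.09 to -0.779). Both settings keep 5 CTNNB1 sgRNAs and fewer cells. No shared source lies behind equal sgRNA numbers, and the deviations of same-numbered sgRNAs did not correlate (-0.019 to 0.016), so the numbers do not pair the sgRNAs. With a replicate block over sgRNA 1 to 4 the count was 13, and 7 in the same fit with no replicate block, which was chosen after seeing the data.

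Against JUN sgRNAs the count of 12 was 5 with DESeq2, 35 without the filter, 2 under the stricter rule and 4 at 10% mitochondrial UMIs. Against CTCF sgRNAs the count of 33 was 13 with DESeq2, 108 without the filter, 1 at 10% mitochondrial UMIs and 21 in G1-scored cells. The looser rule, 10% mitochondrial, 5000 UMI and G1 settings of these comparisons were chosen after seeing the data. Without the filter sgRNA 1 alone called 4 genes and sgRNA 4 alone 2.

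For cell measures the p-values are unadjusted here. The p of the share of cells with a CTNNB1 UMI (exact permutation p = 0.057) was under 0.05 at 8000 UMIs (-13.0 percentage points), unthinned (-19.1), under the stricter rule (-9.94) and at 10% mitochondrial UMIs (-8.28), and without CTNNB1 sgRNA 6 or control sgRNA 3 (exact permutation p = 0.0317 and 0.0476). The difference lay between -10.2 and -6.37 without each sgRNA (exact permutation p = 0.0317 to 0.143). Median UMIs differed by 286 under the looser rule and 426 at 10% mitochondrial UMIs (exact permutation p = 0.2 and 0.492). Without each sgRNA they differed by 371 to 641 (exact permutation p = 0.0238 to 0.119). Unthinned genes per cell differed by 108, and thinned ones by -5 to 13 without each sgRNA. The S share differed by 0.74 at 8000 UMIs and 5.01 under the stricter rule (exact permutation p = 0.571 and 0.0794). The sign turned for G2/M (1.63 at 8000 UMIs, 1.5 at 10% mitochondrial UMIs; -3.52 to 0.194 without each sgRNA), mitochondrial UMIs (0.23 at the 10% limit; -0.424 to -0.173) and sgRNA UMIs (0.625 stricter rule, 0.875 at 10%; -3.08 to 2.58). G1 lay between -5.22 and -2.67 without each sgRNA.

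Log2 fold changes of uncalled genes changed sign under the stricter rule (SOX4 0.0259, TCF7L1 0.081, LAMP3 0.0452, IGFBP5 0.672, CD68 -0.0117), the looser rule (LAMP3 0.141, SLC2A1 0.0173), at 10% mitochondrial UMIs (ADM -0.087, MT-CYB -0.0134) and in G1-scored cells (DKK1 0.0562, PPL -0.06, DSC2 0.0853, TGFBI 0.0687, CTCF 0.0426, CD68 -0.00856). Without each sgRNA PPL lay between -0.00233 and 0.325, DSC2 between -0.238 and 0.0113 and LAMP3 between -0.198 and 0.171. The causes were not tested. CTNNB1 sgRNA 6 (411333 UMIs) and control sgRNA 4 (1038200) limit what low genes can show.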

Other observations

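Genes that mark the line itself were also measured in the pooled counts, as a description with exact 95% Poisson intervals that cover counting error only. EGFR, the receptor that PC9 cells depend on, was at 397 CPM (389 to 406) in the CTNNB1 cells and 418 CPM (405 to 432) in the controls. MET, another receptor tyrosine kinase, was at 34.6 CPM (32.1 to 37.3) and 32.4 CPM (28.8 to 36.3). The keratins KRT7 (2409.9 against 2503 CPM) and KRT19 (2174.3 against 2241.5 CPM) were lower in the CTNNB1 pool and KRT8 (1646.3 against 1609.2 CPM) and KRT18 (4490.9 against 4369.2 CPM) higher, and none of these genes passed the test over sgRNAs. Vimentin (VIM), a mesenchymal filament, had 14 and 13 UMIs.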
